A study of Mus musculus with 12 samples.

Results

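Skeletal muscle genes were followed in total colon of mice, as a sign of striated muscle in the pieces of colon that were sequenced. The 9 genes Acta1, Ckm, Mylpf, Actn3, Myh1, Myh4, Tnnt3, Myl1 and Atp2a1 were taken by symbol, and all 9 of them were among the 30263 genes of the colon tables. They were selected on the KO to WT values of these same libraries, in which Acta1 stood out, so the difference between the groups is described here and nothing is supported by it. The groups were C57BL/6 mice with the genotype label WT (wild type) and with the label S1PR4 KO (knockout). S1PR4 is a sphingosine 1-phosphate receptor found mainly on immune cells, and how it was knocked out is not given in the labels. Both groups had received azoxymethane, a carcinogen, at 10 mg/kg and dextran sulfate sodium, which injures the colon lining, at 0.5% in the drinking water, and colons were taken at day 84. There were 3 libraries per group, named WT1 to WT3 and KO1 to KO3 by their labels. The labels do not say whether each library was a separate animal or which stretch of colon was taken. Another 6 libraries of the series came from CD8+ T cells sorted from PyMT mammary tumors, and their tables of 357 genes listed 0 of the 9.

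Skeletal muscle fibres contract when calcium lets the heads of myosin thick filaments pull on actin thin filaments, and fast and slow fibres use different copies of most of these proteins. The wall of the colon contracts with smooth muscle, which has actins and a myosin heavy chain of its own. Striated muscle surrounds the anal canal as the external sphincter, below the colon, where the lining is a stratified squamous epithelium.

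The 9 genes cover the machinery of a fast fibre. Acta1 encodes the skeletal actin of the thin filament, Tnnt3 the fast troponin T that anchors the calcium switch to it, and Actn3 the fast-fibre alpha-actinin that holds thin filaments at the Z disc. Myh1 and Myh4 encode fast myosin heavy chains, and Myl1 and Mylpf the light chains that sit on them. Atp2a1 encodes the pump that returns calcium to its store, and Ckm the muscle creatine kinase that regenerates ATP. On GRCm38, Acta1 lies on chromosome 8 (123891769 to 123894751, minus strand) and Ckm on chromosome 7 (19404776 to 19422841, plus strand). Chromosome 7 also holds Mylpf (127208890 to 127214298), Tnnt3 (142498836 to 142516009) and Atp2a1 (126445858 to 126463108). Actn3 lies on chromosome 19 (4861216 to 4877909) and Myl1 on chromosome 1 (66924295 to 66945404). Myh1 (67200052 to 67224575) and Myh4 (67238029 to 67260446) are neighbours in the skeletal myosin cluster of chromosome 11. Exons of Atp2a1, Ckm and Myh1 share 763, 451 and 515 bases with genes on the other strand, and strand-specific counting was not stated, so reads of those stretches cannot be told apart.

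The start-site windows of Acta1 and Ckm are shown because both genes together gave most of the reads of the 9 in every library. Each runs from 250 bases before to 50 bases after the RefSeq start (GRCm38.p6), on the gene's strand. Acta1 is chr8:123894726-123895025 on the minus strand, and Ckm is chr7:19410844-19411143 on the plus strand. Capitals mark a CArG box, the motif of serum response factor, a regulator of muscle actins.
Acta1: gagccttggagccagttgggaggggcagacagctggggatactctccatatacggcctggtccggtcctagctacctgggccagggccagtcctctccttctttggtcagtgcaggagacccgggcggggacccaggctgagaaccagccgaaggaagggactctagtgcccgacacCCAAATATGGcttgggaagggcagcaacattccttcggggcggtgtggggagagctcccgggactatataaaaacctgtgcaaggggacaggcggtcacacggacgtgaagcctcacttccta
Ckm: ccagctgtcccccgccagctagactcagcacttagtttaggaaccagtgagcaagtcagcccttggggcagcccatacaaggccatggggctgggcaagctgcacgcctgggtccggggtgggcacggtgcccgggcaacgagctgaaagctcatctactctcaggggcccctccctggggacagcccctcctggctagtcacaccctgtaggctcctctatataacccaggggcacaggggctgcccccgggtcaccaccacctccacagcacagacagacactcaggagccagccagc
RefSeq windows were found for 7 of the 9 genes, all except Actn3 and Tnnt3. A CArG box was present in 2 of the 7 windows, Acta1 and Myh4, against 1.63% of 32851 RefSeq windows of the same length. A MEF2 box, the motif of another muscle factor, was present in 2 of the 7, Myh1 and Myh4, against 3.19% of windows. The E-box CANNTG, bound by myogenic factors among others, was present in 6 of the 7, against 72.3% of windows. TATAAA was present in 4 of the 7, against 13.6%. Both strands were searched, and a TATAAA match can lie inside a MEF2 box. These matches are descriptions of the letters and not measured binding sites.

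The colon tables held 7304082 to 8652561 counts per library. S1pr4 itself was higher in the libraries labelled KO (118 to 162 counts) than in those labelled WT (25 to 61 counts), so it does not check which animals lacked the receptor, and every direction below rests on the labels. Xist, expressed in female cells, stood at 3779 to 4609 counts in WT1, KO2 and KO3 and at 7 to 54 in WT2, WT3 and KO1, where the Y-linked Ddx3y stood at 473 to 635. WT1 stood apart in squamous epithelium. The 22 listed squamous genes, keratins and skin barrier proteins, summed to 1187 CPM in WT1 and to 22.6 and 30.0 CPM in WT3 and WT2. In KO1, KO2 and KO3 they summed to 30.0, 98.5 and 102 CPM. KO2 and KO3, Xist-high like WT1, thus lay below WT1 but above WT2, WT3 and KO1. CPM is the count relative to the library's size, here the TMM-scaled total. Colon epithelium was present throughout, with 1764 to 2209 CPM over 10 listed genes. The log2 ratios of the fitted muscle genes are therefore given with and without WT1.

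The 9 genes formed a minor part of the RNA, and they did not share 1 pattern. Together they held 935, 387 and 514 counts in WT1, WT2 and WT3 and 265, 250 and 157 counts in KO1, KO2 and KO3. Every KO library lay below every WT library in this sum. Acta1 was high in all 3 WT libraries and low in all 3 KO libraries. Without Acta1, the other 8 genes held 606 counts in WT1, 134 and 175 in WT2 and WT3, and 169, 115 and 75 in the KO libraries. That sum was high in WT1 alone, and WT2 and WT3 overlapped with the KO libraries. In tissue, fewer muscle cells and less RNA per cell cannot be told apart.

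**Figure D1:**
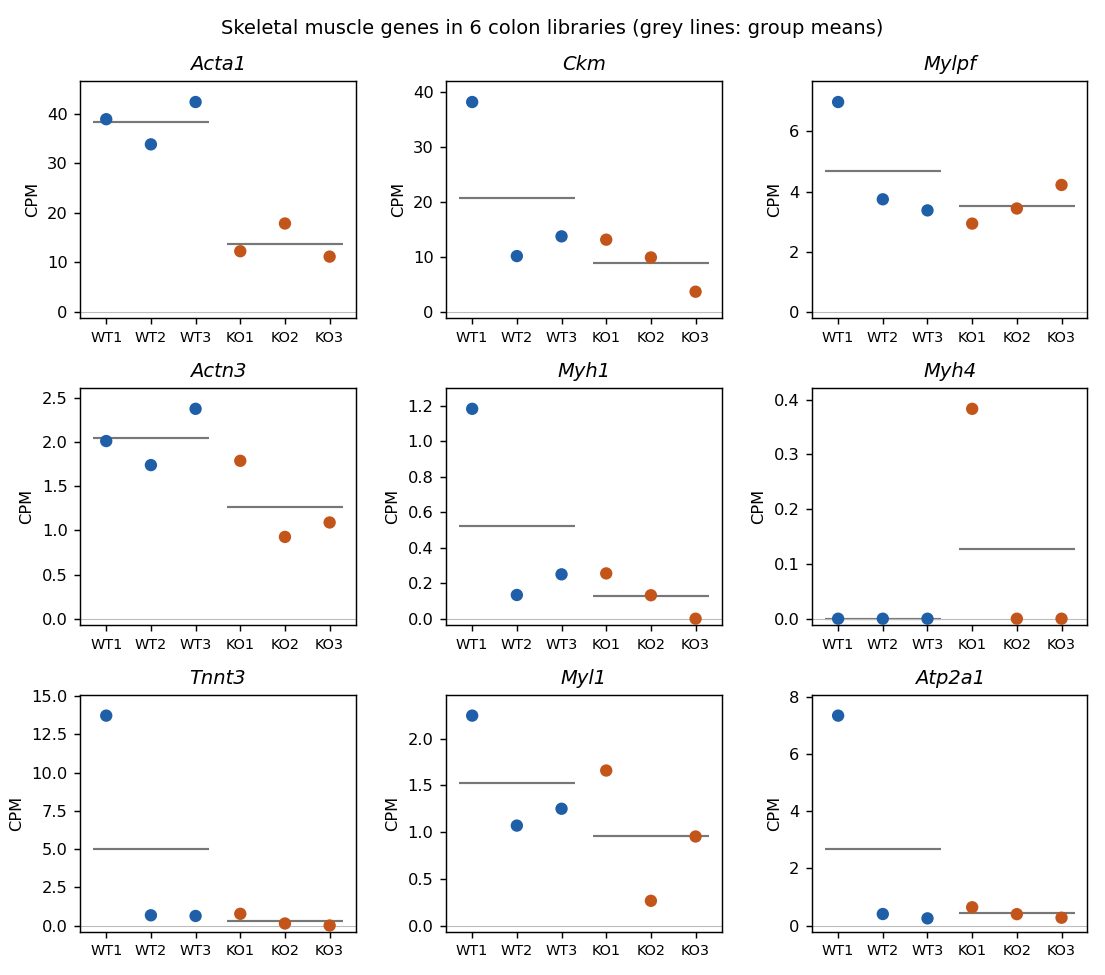
TMM-scaled CPM (vertical axes, each with its own scale) of the 9 skeletal muscle genes in the 6 colon libraries, with blue points for libraries labelled WT, orange points for libraries labelled KO and grey lines for group means. Acta1 separates the groups, while Tnnt3, Atp2a1 and Myh1 are high in WT1 only and Myh4 has reads in KO1 only.

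Acta1 held 329, 253 and 339 counts in WT1, WT2 and WT3 and 96, 135 and 82 counts in KO1, KO2 and KO3. The lowest WT library was thus well above the highest KO library, and WT1 was not the highest of its group. The WT mean was 38.4 ± 4.30 CPM and the KO mean 13.8 ± 3.59 CPM (each SD, n = 3). The fitted log2 ratio of KO to WT was -1.48 ± 0.21 (SE), and it was -1.46 ± 0.25 (SE) without WT1. Within the Xist-high libraries, WT1 stood at 38.9 CPM against a mean of 14.5 in KO2 and KO3. Within the Ddx3y-high libraries, WT2 and WT3 averaged 38.1 CPM against 12.3 in KO1. Since every WT library lay above every KO library, this order within both sets was fixed in advance and is no separate check. Acta1 was the 1 gene of the 9 whose groups did not overlap, and 5.04% of 17195 tested genes had every WT library above every KO library.

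Other actins did not separate the groups. Acta2 and Actg2, the actins of vascular and visceral smooth muscle, had log2 ratios of -0.10 ± 0.10 and -0.08 ± 0.10 (SE). Acta2 ran from 957 to 1383 counts and Actg2 from 795 to 1111, both lowest in KO3. Actc1, the cardiac actin, held 20, 3 and 22 counts in the WT libraries and 18, 8 and 13 counts in the KO libraries, with full overlap. Actb and Actg1, the actins of all cells, had log2 ratios of 0.06 ± 0.06 and -0.18 ± 0.35 (SE). For each Acta2 count there were 0.238, 0.209 and 0.263 Acta1 counts in the WT libraries and 0.0734, 0.114 and 0.0857 in the KO libraries. Actin genes are alike in sequence, and the coding sequence of Acta1 was 85.4% identical to that of Acta2 and 86.2% to that of Actc1. Even so, 0 of the 1534 windows of 50 bases in Acta1 transcripts occurred in transcripts of Acta2, Actg2 or Actc1, and 28 (1.83%) occurred in Actb. No gene exceeded 0.973 counts per exon base in any library. Counts of highly expressed genes may therefore lie near a ceiling and their folds may be compressed, which was not tested. Acta1 reached 0.221 counts per exon base, against 0.630 for Acta2 and 0.714 for Actg2, so these folds were not measured over the same range.

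Among genes outside the 9, the closest in pattern to Acta1 was Dbp, a transcription factor whose level follows the daily cycle. Likeness was measured as the SD over the 6 libraries of the log2 ratio of a gene to Acta1, where a smaller value is closer and a gene with no variation would score 0.858. Dbp scored 0.300, with 571, 318 and 461 counts in the WT libraries and 219, 225 and 133 counts in the KO libraries. Its log2 ratio was -1.14 ± 0.25 (SE), and all 3 KO libraries lay below all 3 WT libraries in counts. A gene picked for its likeness to Acta1 is low in KO by that choice, so these values are no separate result. The next were Ugt1a1 (0.334), an enzyme of bilirubin clearance whose counts are uncertain because the Ugt1a genes have exons in common, and Creb3l3 (0.338), a transcription factor of lipid metabolism. Actn2 (0.346), a sarcomeric alpha-actinin, Crybb3 (0.351), a crystallin, and Sardh (0.380), a mitochondrial sarcosine dehydrogenase, followed. Ckm scored 0.828 and Acta2 0.795, but a score near 0.858 does not show that a gene is flat. Acta2 was nearly flat, at 130 CPM in KO3 to 167 CPM in KO1. Ckm varied widely, from 3.68 CPM in KO3 to 38.2 CPM in WT1, in an order of its own. These values are descriptions over 6 libraries.

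**Figure D2:**
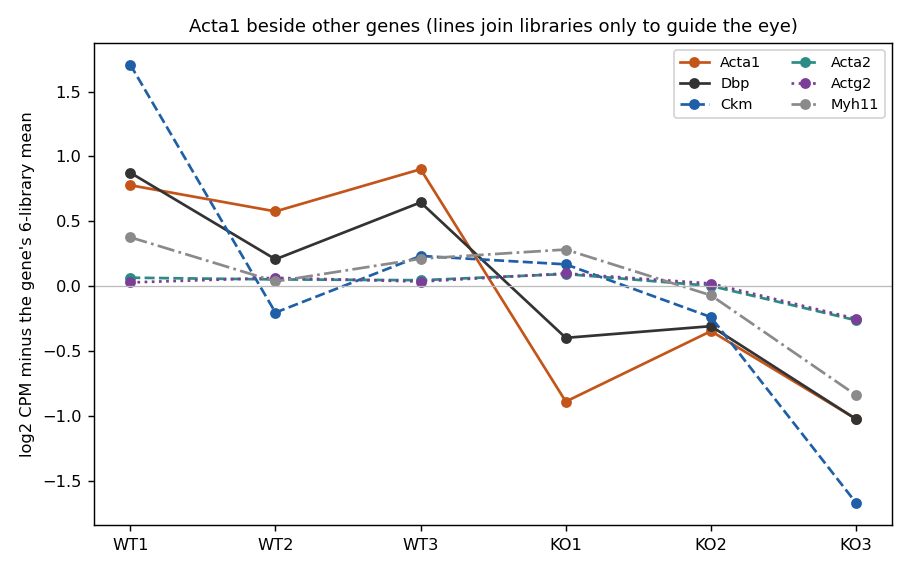
log2 CPM minus each gene's own 6-library mean (vertical axis) in the 6 colon libraries for Acta1, Dbp, Ckm, Acta2, Actg2 and Myh11, with lines that only guide the eye. Acta1 and Dbp are above their means in every WT library and below them in every KO library, while Ckm is high in WT1 and low in KO3 and the smooth muscle actins are nearly flat.

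Ckm, the creatine kinase, held 323, 76 and 110 counts in WT1, WT2 and WT3 and 103, 75 and 27 counts in KO1, KO2 and KO3, and in KO1 it exceeded Acta1. WT1 was high and KO3 low, and the remaining 4 libraries lay together across the groups. The WT mean was 20.7 ± 15.3 CPM and the KO mean 8.92 ± 4.82 CPM (each SD, n = 3). The log2 ratio was -1.21 ± 0.65 (SE), and -0.41 ± 0.54 (SE) without WT1. Within the Xist-high libraries KO2 and KO3 averaged 6.80 CPM against 38.2 in WT1, whereas within the Ddx3y-high libraries KO1 stood at 13.1 CPM, between WT2 at 10.2 and WT3 at 13.8. Smooth muscle genes also varied between the libraries. The smooth muscle myosin Myh11 held 5710, 3988 and 4817 counts in the WT libraries and 4955, 3745 and 2134 counts in the KO libraries, so it too was highest in WT1 and lowest in KO3. The ratio of Ckm to Myh11 counts was 0.0566 in WT1, 0.0191 to 0.0228 in WT2, WT3, KO1 and KO2, and 0.0127 in KO3. Myh11 reached 0.751 counts per exon base against 0.111 for Ckm, so differences in Myh11 may be compressed in this ratio. The part of the smooth muscle content in these values was not tested.

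Troponin T, the calcium pump and the fast myosin Myh1 were high in WT1 only. Tnnt3 held 116 counts in WT1, 5 in each of WT2 and WT3, and 6, 1 and 0 in KO1, KO2 and KO3. Atp2a1 held 62 counts in WT1, 3 and 2 in WT2 and WT3, and 5, 3 and 2 in the KO libraries. Myh1 held 10 counts in WT1, 1 and 2 in WT2 and WT3, and 2, 1 and 0 in the KO libraries. In CPM, WT1 exceeded the next library 17.9 times for Tnnt3, 11.5 times for Atp2a1 and 4.63 times for Myh1, so 3 of the 9 genes were at least 3 times higher in WT1 than in any other library. Of the 30263 genes of the colon tables, 3.24% were. WT1 was the highest library for 6 of the 9, against 17.7% of these genes. Outside WT1 the 3 genes were at the edge of detection in both groups, since a count of 0 allows up to 3 counts, or 0.375 to 0.408 CPM in those 5 libraries. Summed over these 3 genes, WT2 and WT3 held 9 counts each and the KO libraries 13, 5 and 2.

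The 2 light chains and the fast alpha-actinin were present at low level in every library. Mylpf held 59, 28 and 27 counts in the WT libraries and 23, 26 and 31 counts in the KO libraries, so it was high in WT1 and level in the other 5. Its log2 ratio was -0.41 ± 0.36 (SE), -9.02e-05 ± 0.28 (SE) without WT1 and -0.085 with limma-voom. Actn3 held 17, 13 and 19 counts in the WT libraries and 14, 7 and 8 counts in the KO libraries, and its groups overlapped through KO1. Its log2 ratio was -0.68 ± 0.34 (SE), -0.68 ± 0.43 (SE) without WT1 and -1.01 ± 0.34 (SE) without KO1. Myl1 held 19, 8 and 10 counts in the WT libraries and 13, 2 and 7 counts in the KO libraries, and KO1 lay above WT2 and WT3. Myh4, the heavy chain of the fastest fibres, held 3 counts in KO1 and 0 in every other library, so no fold is given for it.

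Of the 9 genes, 4 passed the filter on low counts and entered the test across all genes, namely Acta1, Ckm, Mylpf and Actn3. All 4 had lower means in KO, with a median log2 ratio of -0.95 beside -0.0045 over the 17195 genes tested. Without WT1 their median was -0.55. Without KO2 the median was -0.50, but over the 5 members that then passed the filter. With no library left out, the other 5 were under the filter. When it was dropped, Tnnt3 moved from -3.97 to -1.05, Atp2a1 from -2.56 to 0.42 and Myh1 from -1.89 to -0.51 when WT1 was left out. Acta1 stayed at -1.47. edgeR's quasi-likelihood test with Benjamini-Hochberg adjustment called 0 of the 4 and 0 (0%) of all genes, with 1 of the 4 and 870 (5.06%) of all genes at an unadjusted p under 0.05. limma-voom called 0 of the 4 and 0 of all genes, with 4150 (24.1%) at an unadjusted p under 0.05. DESeq2 called 1 of the 4, Acta1, and 18 (0.105%) of all genes. Because this contrast was the reason for choosing the genes, nothing is read from these counts.

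**Figure D3:**
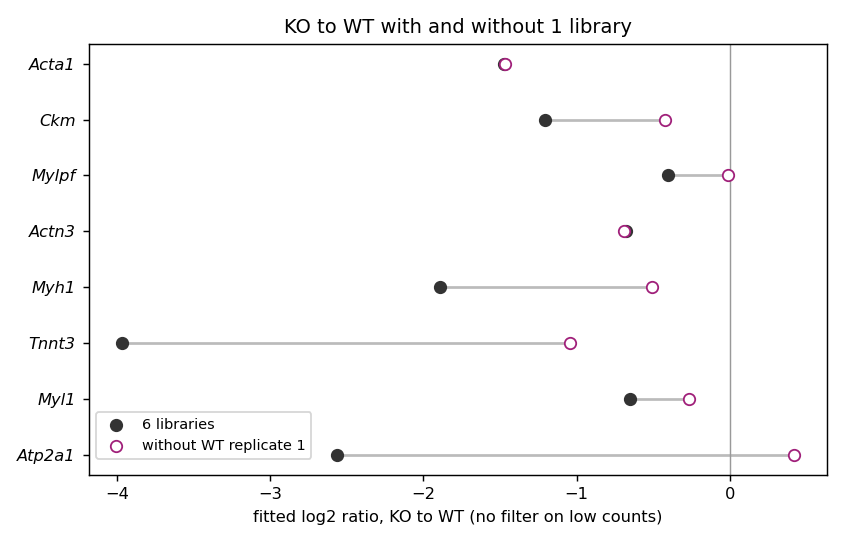
Fitted log2 ratio of KO to WT (horizontal axis, edgeR with no filter on low counts) for 8 of the 9 skeletal muscle genes, with filled points for all 6 libraries and open points without WT1. Acta1 stays at -1.47 and Actn3 near -0.68, whereas Tnnt3, Myh1, Ckm, Mylpf and Myl1 move towards 0 and Atp2a1 crosses it.

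Per kilobase of exon, Acta1 was the most abundant of the 9 in every library, from 7.27 CPM per kb in KO3 to 27.6 in WT3. Below it the order depended on the library. In WT1 it was Ckm (13.1 CPM per kb), Tnnt3 (8.67), Mylpf (6.57) and Atp2a1 (2.11). In WT2, WT3, KO1, KO2 and KO3, Ckm and Mylpf took the next 2 places, at 1.26 to 4.72 and 2.76 to 3.97 CPM per kb, ranges that overlap. Tnnt3 stood at 0 to 0.484 CPM per kb in those 5 libraries. Acta1 thus gave 35.2% of the reads of the 9 genes in WT1 (exact 95% interval 32.1 to 38.3, counting error only), and 65.4% and 66.0% in WT2 and WT3. In KO1, KO2 and KO3 its share was 36.2%, 54.0% and 52.2%.

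The make-up of the skeletal myosin heavy chains also set WT1 apart. The 6 genes Myh1, Myh2, Myh3, Myh4, Myh7 and Myh8 held 326 counts in WT1, 18 and 27 in WT2 and WT3, and 21, 8 and 4 in the KO libraries. Of the 326, Myh8 gave 251 (77.0%, exact 95% interval 72.0 to 81.5), or 66.6% when counts were divided by exon length. Myh8, the perinatal heavy chain, held 0 counts in each of the other 5 libraries. Myh2, the heavy chain of fast oxidative fibres, held 60, 12 and 23 counts in the WT libraries and 12, 5 and 0 counts in the KO libraries, so every WT library lay above every KO library in CPM, by a narrow margin at WT2 (1.60) and KO1 (1.53). With no filter its log2 ratio was -2.36, and -1.59 without WT1. Myh4 gave 0 of 326 counts in WT1, which allows a share of up to 1.13% (upper end of the exact 95% interval). Myh7, the slow heavy chain, gave 2 counts there and Myh3, the embryonic one, gave 3. Reads can be shared in this family, since 1186 of 6347 windows of 50 bases (18.7%) in Myh1 occurred in Myh2, 583 (9.19%) in Myh8 and 635 in Myh4. Of the Myh8 windows, 720 of 11814 (6.09%) occurred in Myh2.

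**Figure D4:**
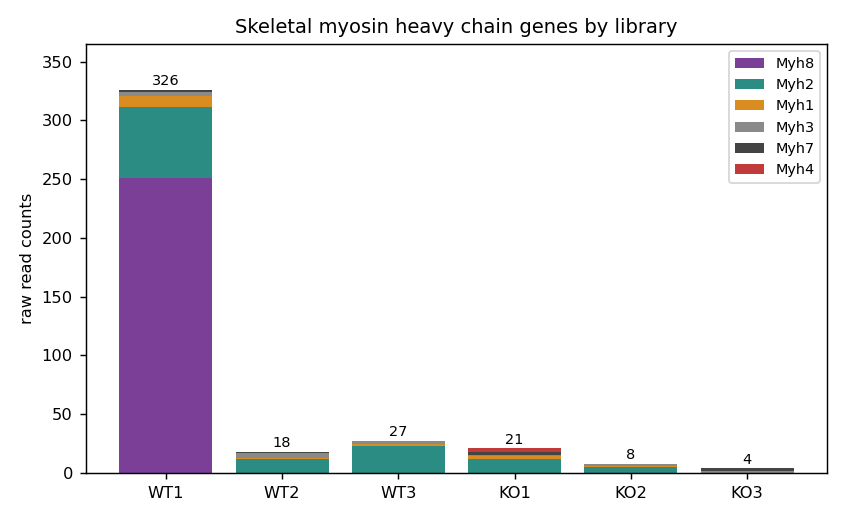
Raw read counts (vertical axis, from 0) of 6 skeletal myosin heavy chain genes stacked for each colon library, with the total above each bar. WT1 holds 326 counts, of which Myh8 gives 251, and no other library exceeds 27.

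Other genes of striated muscle were read from lists of fast, slow, scaffold, coupling, metabolic, myogenic and heart genes. Of 87 such genes in the tables, 16 were at least 3 times higher in WT1 than in any other library, as were 3 of the 9. The share over all genes was 3.24%. Some of the 16 were at the edge of detection, such as Myf5 and Myf6 with 1 count each in WT1 and 0 elsewhere, and Lmod3 with 4 in WT1. Among the 16 were Myl3, a slow and cardiac light chain (59 counts in WT1, 0 elsewhere), and Mb, the oxygen store myoglobin (57 counts, at most 3 elsewhere). Mybpc1, slow myosin binding protein C, held 105 counts in WT1 and 0 to 14 elsewhere. Tcap, which caps titin at the Z disc, held 41 against 1 to 6, and Xirp2, a Xin actin-binding protein, held 12 against 0. The fast troponin I gene Tnni2 held 91 counts in WT1, 9 in each of WT2 and WT3, and 19, 33 and 20 in the KO libraries. With no filter its log2 ratio was -0.46, and it turned to 1.43 without WT1. The squamous genes were also in excess in WT1, where 20 of the 22 were at least 3 times higher. Among them were Krt5 (1054 counts against 1 to 3) and Krt1 (799 against 0 to 2). The 11 tested squamous genes had a median log2 ratio of -2.19, which turned to 2.28 without WT1. The part of squamous tissue in the muscle values was not tested. Counted over the other 5 libraries, 5 of the 87 genes were at least 3 times higher in KO3 than in the rest. In KO1 and KO2 this held for 2 each, in WT3 for 1 and in WT2 for 0. The share over all genes was not counted for these 5 libraries, so nothing is read from these counts.

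**Figure D5:**
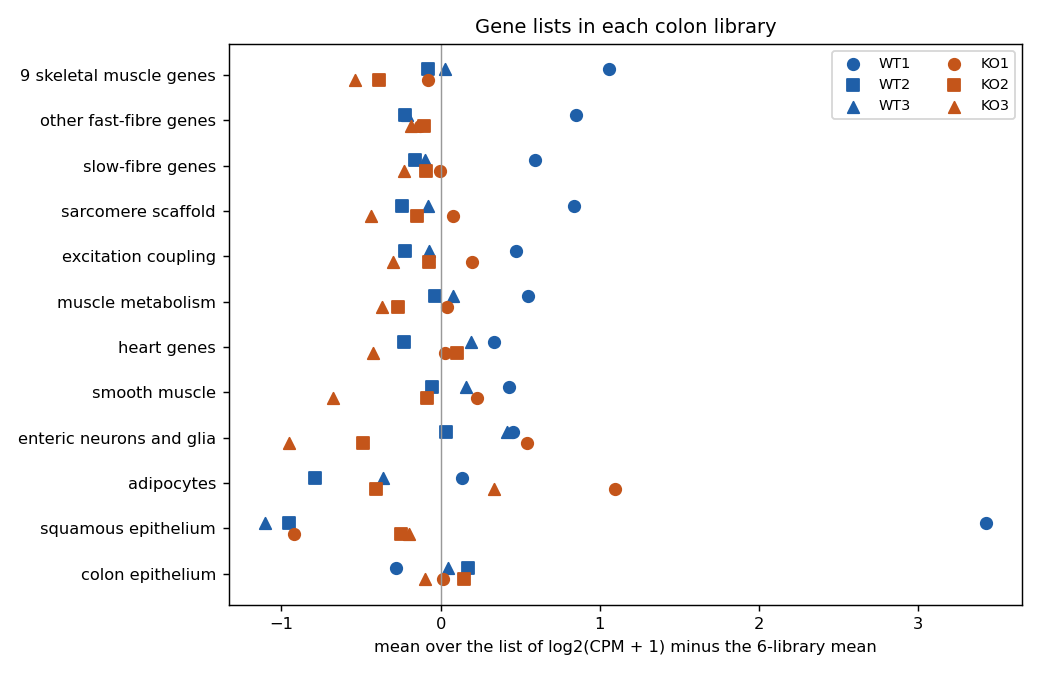
Mean over each gene list of log2(CPM + 1) minus the gene's 6-library mean (horizontal axis) for 12 lists, with blue symbols for WT and orange for KO libraries and a shape for each replicate. WT1 lies farthest right for the skeletal muscle, fast, slow, scaffold, coupling, metabolic, heart and smooth muscle lists and, at 3.43, for squamous epithelium. KO3 lies farthest left for the same muscle and heart lists apart from the fast one, and for enteric neurons and glia.

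Of the 87 genes, 42 were tested, and edgeR called 0 after adjustment, with 3 lower and 1 higher in KO at an unadjusted p under 0.05, beside 2.44% and 2.62% of all genes tested. DESeq2 and limma-voom also called 0. The 42 had a median log2 ratio of -0.44, with 32 lower in KO, and a median of -0.18 with 26 lower without WT1. Among them were genes abundant in every library, such as Atp2a2 (2160 to 2638 counts), Des (1147 to 1924) and Eno3 (625 to 1072). Myh8, Myl3, Mb and Tcap, with 0 to 6 counts outside WT1, were under the filter. Whether the reads of the abundant genes came from striated muscle was not tested. The 3 lower genes were Actn2, the muscle phosphoglycerate mutase Pgam2 and the tropomodulin Tmod4. Pgam2 held 75, 53 and 54 counts in the WT libraries and 41, 18 and 23 counts in the KO libraries, a log2 ratio of -1.08 ± 0.34 (SE). Actn2 held 24, 15 and 20 counts against 10, 12 and 7, a ratio of -0.94 ± 0.30 (SE). Tmod4 held 14, 15 and 18 counts against 12, 4 and 5, a ratio of -1.09 ± 0.44 (SE). Without WT1 and with no filter, the ratios were -0.95 for Pgam2, -0.82 for Actn2 and -1.20 for Tmod4. Every WT library lay above every KO library in CPM for 5 of the 87 genes, namely these 3, Myh2 and the fatty acid binding protein gene Fabp3, beside 5.04% of all genes tested. Fabp3 held 9, 4 and 8 counts in the WT libraries and 2, 1 and 1 counts in the KO libraries. Of all 17195 genes tested, 8764 had lower means in KO. By list, so did 4 of 4 tested genes of the fast list (median -0.87), and 3 of 4 without WT1 (-0.40). These 4 include Actn2, which is not particular to fast fibres. Of the scaffold genes 7 of 8 had lower means in KO (-0.52), and 5 of 8 without WT1 (-0.18). Of the metabolic genes 7 of 9 did with WT1 (-0.42) and without it (-0.35). Coupling genes had a median of -0.18 over 8 tested and heart genes of -0.17 over 6, and without WT1 these medians were 0.20 and 0.03. Slow-fibre genes stood at -0.05 over 5 and, without WT1, at 0.0022. Myogenic genes stood at -0.45 over 2 tested, and at -0.44 without WT1. The 13 smooth muscle genes had a median of -0.30, and -0.12 without WT1. Of these, 10 reached more than 0.3 counts per exon base, so their folds may be compressed. The 14 enteric neuron and glia genes had a median of -0.49, and -0.47 without WT1. Their sums were 436, 323 and 425 CPM in the WT libraries and 452, 225 and 172 CPM in KO1, KO2 and KO3. KO1 was thus the highest library, and only KO2 and KO3 lay below the WT libraries. Fat genes had higher means in KO for 8 of 8 tested (median 1.06, and 1.59 without WT1), highest in KO1 at 278 CPM summed against 100 to 161 in the other libraries. The part of these tissues in the muscle values was not tested.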

How the data were processed

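The values were read counts per Ensembl gene, deposited as whole numbers with no normalization, per the file headers. STAR, TopHat2, RSEM, HTSeq and DESeq2 and the builds mm10 and GRCm38 are named in the submitters' processing notes without roles or versions. Filters, removal of duplicate reads, read length and use of strand are not given in the sources used here. RNA was isolated with the RNeasy Micro Kit, per the labels' protocols. The CD8 tables list 357 genes and were not used further.

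In R 4.3.3, edgeR 4.0.16 compared the 3 KO with the 3 WT colon libraries by its robust quasi-likelihood test, after filterByExpr and TMM scaling, with Benjamini-Hochberg adjustment over 17195 genes and a threshold of 0.05. The SE is the log2 ratio divided by the root of the test's F. P-values measure only the spread between these libraries, which may be technical. GENCODE vM21 on GRCm38 held 99.83% of the gene IDs and gave places and lengths. Between replicates, chi-square per degree of freedom was 5.58 or more, so none was a repeat. Each script's fit was first tested on simulated counts. DESeq2 1.42.0, limma 3.58.1 and other scalings, filters and covariates were alternatives.

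The members, lists and tests were chosen with earlier results of these data known. Named genes were the 9, the checks S1pr4, Xist and Ddx3y, the actins, the myosin heavy chains, the 6 nearest in pattern to Acta1 and to the sum of the other 8, and up to 4 tested genes of each list with the smallest p, of which those needed are printed. Genes outside this rule (Myl3, Mb, Mybpc1, Tcap, Xirp2, Myf5, Myf6, Lmod3, Krt5, Krt1, Myh11, Fabp3, Chrnd, Chrne, Chrng, Jph2 and Myl7) were chosen after their values were seen.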

Additional observations from a re-analysis of the deposited data

How the results depend on the processing

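DESeq2 called 18 colon genes where edgeR called 0, and under the other settings, libraries left out included, the count stayed at 0. For the companion striated genes the count of calls was 0 under every setting. The share of Myh8 in the myosin heavy chain counts of WT1 was 77.0% by counts and 66.6% per exon length. Acta1 ranged from -1.71 (without KO2) to -1.34 (without KO3) when single libraries were left out, and stood at -1.39 to -1.53 under the other settings. Ckm ranged from -1.61 to -0.41, the latter without WT1, and, over single libraries left out, the median of the fitted members from -1.21 (without KO1) to -0.50 (without KO2). That median was -1.34 over the 2 members with a mean of at least 50 counts, and -0.43 over 9 with no filter and without WT1. Leaving out WT1 or KO2 moved the median by over 1.5 times. Without KO2, 5 members passed the filter, as they did without WT2, WT3 or KO3, so these medians were not taken over the same genes. The 4 genes of the main fit stood at -1.71 (Acta1), -1.30 (Ckm), -0.39 (Mylpf) and -0.50 (Actn3) without KO2. Mylpf was -9.02e-05 without WT1 and -0.085 with limma-voom. With a prior of 5 counts in place of 0.5, 4 of the 6 genes nearest to Acta1 stayed among the nearest, while Actn2 and Crybb3 gave way to Per2 and Ifit1bl2, and 2 of the 6 nearest to the other 8 members stayed.

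The replicate number as a block gave -1.50 for Acta1 and a median of -0.93, with 0 genes called. The deviations of same-numbered libraries from their group means had no common direction (correlations -0.0013, 0.235 and -0.224). With 3 libraries per group this cannot settle whether the numbers pair them. With sex chromosome status as a covariate Acta1 was -1.53 and the median -0.89. Fits without a filter and without WT1, and values within Xist-high or Ddx3y-high libraries, were added after seeing the data. Outside WT1, Myh1, Myh4, Atp2a1 and Tnnt3 held 0 to 6 counts per library, which limits what their values can show.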

Other observations

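The 6 genes closest in pattern to the other 8 muscle genes summed, which follow WT1, were Stk32c, Plxna4, Vsig10l, Asap3, Nr2f1 and Ldb2, with scores of 0.261 to 0.294 where a gene with no variation would score 0.945. Stk32c, a protein kinase gene, held 180, 47 and 75 counts in the WT libraries and 64, 37 and 19 counts in the KO libraries. Plxna4, a semaphorin receptor, held 336, 72 and 136 counts in the WT libraries and 143, 84 and 48 counts in the KO libraries. Both were highest in WT1 and lowest in KO3, as was Ckm. This order follows from their choice by likeness to the sum.

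Of the 5 acetylcholine receptor subunits of the muscle end plate, Chrnd, Chrne and Chrng held 0 to 4 counts per library. Chrnb1 held 176, 105 and 93 counts in the WT libraries and 119, 322 and 441 counts in the KO libraries, a log2 ratio of 1.34 ± 0.51 (SE), with KO1 inside the WT range. With no filter and without WT1 the ratio was 1.61. Chrna1 held 15, 18 and 8 counts in the WT libraries and 9, 43 and 41 counts in the KO libraries. Chrnb1 and Chrna1 were high in KO2 and KO3 only.

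Jph2, a junctophilin that ties the calcium store to the surface membrane, held 1601, 700 and 1048 counts in the WT libraries and 1032, 609 and 235 counts in the KO libraries, highest in WT1 and lowest in KO3. The atrial light chain Myl7 held 57, 191 and 113 counts in the WT libraries and 10, 230 and 182 counts in the KO libraries, with no order by group.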
